A study of Mus musculus with 4 samples.

Results

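The genes described here encode homeobox, Pax, POU and Gata transcription factors, families of DNA-binding proteins that set regional and cell identity, as measured in 4 samples of mouse hippocampus. They were chosen by name alone: a probe set was a member when the platform annotation gave it exactly 1 gene symbol and that symbol began with Hoxa to Hoxd, Pax, Lhx, Nkx, Dlx, Otx, Pou, Gata, Msx, Pitx, Gbx, Irx, Emx or En followed by a digit, or was that of a sine oculis homeobox gene such as Six2. This gave 113 of 12422 probe sets, for 91 genes. No Otx or Emx probe set was found by the rule. The symbols also brought in the antisense RNAs Dlx1as, Dlx6os2 and Hoxa11os and the coactivator gene Pou2af1, which make no such factor. Total RNA from each sample was read on 1 Affymetrix Murine Genome array. A probe set of short oligonucleotides is meant to report 1 transcript, but 396 probe sets were annotated with several gene symbols. All 4 samples form a single group, labelled as murine hippocampus, and no label gives a strain, sex, age or treatment. Each title also carries an identifier of its own, whose meaning is not given in the labels. Samples are numbered 1 to 4 for naming alone. No label says that they came from separate animals, so the p-values below measure only the spread between these samples, which may be technical.

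Homeodomain proteins bind short AT-rich sites through a conserved helix-turn-helix fold. POU proteins join a homeodomain to a second DNA-binding domain, Pax proteins carry a paired domain, and Gata proteins bind through zinc fingers. In the embryo, Hox genes are active from the hindbrain backwards and mark position along the trunk, whereas LIM-homeobox (Lhx), Emx and several Pax and POU genes pattern the forebrain. Several Dlx genes and Lhx6 act in the lineage of GABAergic interneurons, and Nkx2-2 and Nkx6-2 in that of oligodendrocytes.

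Signals are quantile normalized array units. A value was held against a floor of 27.7 units, the 25th percentile of all normalized values. A signal above this floor is not a detection call, and signals below it have no order. Signals of different probe sets were not compared, since probe sets differ in how strongly they bind. For the same reason, the summed signals of marker lists given below mainly follow the brightest probe sets of each list. The hippocampal label was checked against principal cell markers, of which 8 of 9 measured genes were above the floor in all 4 samples, with the granule cell factor Prox1 above it in samples 1 and 3 only. One that passed, the pyramidal cell kinase Camk2a, gave 357, 629.7, 321 and 29.4 units and was close to the floor in sample 4. Interneuron (9 of 9), astrocyte (5 of 5), oligodendrocyte (8 of 9), meningeal (5 of 5), choroid plexus (4 of 5), vessel (5 of 6), thalamic (5 of 5), striatal (2 of 3), cerebellar and hindbrain (4 of 5), pituitary and hypothalamic (4 of 7) and blood and immune markers (4 of 7) were also above the floor in all 4 samples, so the floor alone does not tell tissues apart. Beta-actin signal at the 3' end over that at the 5' end, a ratio that rises when RNA or its copy is less complete, was 1.84, 1.64, 1.51 and 2.03 in samples 1 to 4. For the second control, Gapdh, this ratio was 0.89, 0.86, 0.98 and 1.15, also highest in sample 4.

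Most of these factors gave low signals in the hippocampus. Only 41 of 113 member probe sets (36.3%) were above the floor in all 4 samples, against 64.1% of all probe sets and 66.1% of those with 1 gene symbol. Another 45 were above it in 1 to 3 samples, and 27 (23.9%) in none, against 14.2% of all probe sets and 13% of those with 1 gene symbol. By gene, taking the probe set with the highest mean, 40 of 91 genes were above the floor in all samples, 32 in some and 19 in none. These counts depend on where the floor lies. At the 15th percentile (14.2 units) 71 probe sets lay above it in all samples, against 74.7% of all probe sets, and at the 40th percentile (63.5 units) 19 did, against 51.4%. Both shares of members, 62.8% and 16.8%, were again below the share of all probe sets. At the floor of 27.7 units, the families with the lowest and highest shares included Hoxd with 1 of 9, Hoxc with 4 of 5 and Pitx with 2 of 2. These are small families named after the values were seen, and the contrast depended on the floor. At 63.5 units, the only probe set of these families above it in all samples was that of Hoxd8.

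**Figure D1:**
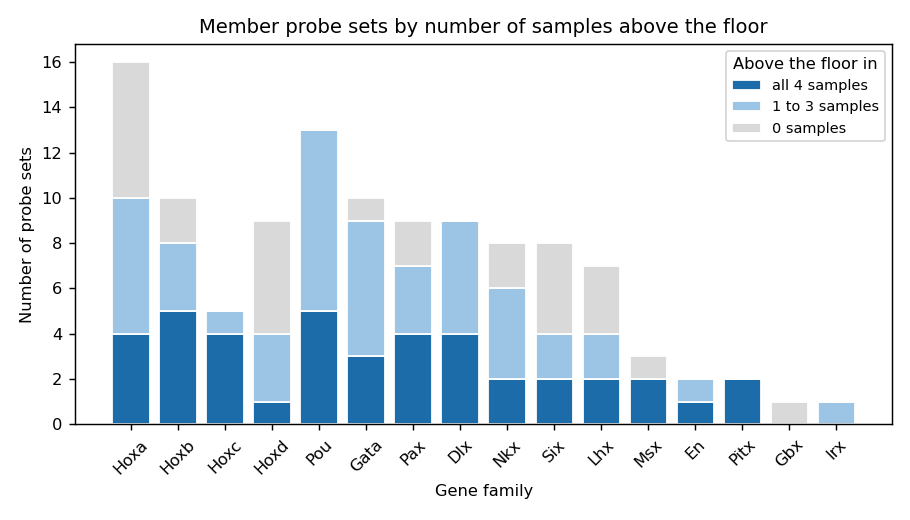
Stacked bars give the number of member probe sets in each gene family, split by the number of samples (all 4, 1 to 3, or 0) in which the normalized signal was above the floor of 27.7 units. Of 13 Pou probe sets, 5 were above the floor in all samples and 0 were below it in all, while 5 of 9 Hoxd probe sets were below it in all.

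Among forebrain factors, 3 POU genes had a probe set with a mean above the array median. Pou6f1, a POU gene expressed in brain, gave 566, 528, 509 and 477 units in samples 1 to 4 (mean 520.0 ± 37.1, SD, n = 4), a range of 1.19-fold. Pou3f3, which acts in cortical and hippocampal neurons, gave 157, 128, 151 and 145 units (mean 145 ± 12.2, SD, n = 4). Pou3f1, known from pyramidal neurons and from myelinating Schwann cells, gave 169, 247, 224 and 236 units (mean 219 ± 34.7, SD, n = 4). Sample 1 was the low one for Pou3f1, and its highest sample was 2 or 4 depending on the scaling. The range was 0.25 log2 units for Pou6f1, 0.29 for Pou3f3 and 0.55 for Pou3f1, against a median of 0.53 over all analysed probe sets, so that of Pou3f1 was ordinary. Pou3f2, a close relative of Pou3f3, differed in pattern: it gave 31.1, 122 and 28.4 units in samples 2, 3 and 4, with sample 1 below the floor. Sample 3 was thus at least 4.42-fold higher than sample 1 for Pou3f2, while samples 1, 2 and 4 all lay at or near the floor. Pou3f4 was above the floor in sample 3 only, at 37.8 units.

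The 2 further probe sets of Pou6f1 had wider ranges, 1.73-fold and at least 3.44-fold. One gave 61.0, 69.7, 76.2 and 106 units and was highest in sample 4, where the main probe set was lowest with quantile normalized and deposited signals. The other gave 95.3, 58.8 and 33.3 units in samples 1, 3 and 4, with sample 2 below the floor. The 3 probe sets of Pou6f1 thus gave different sample orders.

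Pax6, which drives cortical neurogenesis and remains in neural stem cells, gave 89.6, 62.1, 84.4 and 98.4 units and was lowest in sample 2. Lhx1, a LIM-homeobox gene of the head organizer, gave 67.9, 77.5, 104 and 77.7 units and was highest in sample 3. Both were above the floor in every sample, although their means lay below the array median. The related genes Lhx5 and Lhx9, which mark early forebrain territories, were below the floor in every sample, at 16.5, 12.3, 12.1 and 8.35 units for Lhx5 and at most 15.9 units for the 2 probe sets of Lhx9. Lhx3, a pituitary and motor neuron factor, was above the floor in samples 1 and 4 only, and Lhx8, a factor of basal forebrain cholinergic neurons, in sample 3 only.

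**Figure D2:**
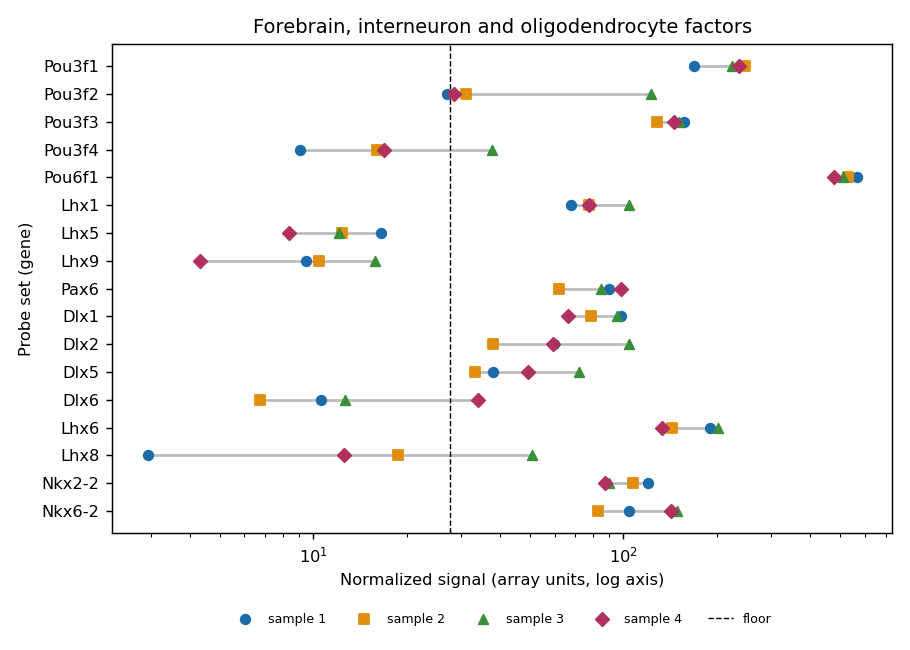
Each row is the brightest probe set of 1 forebrain, interneuron or oligodendrocyte factor, with the normalized signal on a log axis, a symbol for each of the 4 samples, a grey line over their range and a dashed line at the floor of 27.7 units. The samples lie close together for Pou6f1 and Pou3f3, sample 1 lies to the left of the others for Pou3f1, and sample 3 stands to the right of the others for Pou3f2.

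The list drawn up for the interneuron lineage held Dlx1 to Dlx6, Lhx6 and Lhx8. It is broader than that lineage, since Dlx3 and Lhx8 are known mainly from other cells. Of its 8 probe sets, 4 were above the floor in all samples and 4 in some, against 64.1% of all probe sets above it in all. Lhx6, needed for interneurons that make somatostatin or parvalbumin, gave 189.7, 143, 202 and 134 units in samples 1 to 4 (mean 167 ± 33.9, SD, n = 4), high in samples 1 and 3 and lower in samples 2 and 4. Dlx1 gave 98.2, 78.8, 95.4 and 66.5 units, with samples 1 and 3 again the higher pair. Its partner Dlx2 gave 59.5, 38.0, 104 and 59.2 units, a range of 2.75-fold. Dlx5 gave 38.0, 33.2, 72.1 and 49.3 units, a range of 2.17-fold. Sample 3 was highest for Dlx2, Dlx5 and Lhx6, also with deposited and with median-scaled signals. For the whole interneuron marker list the summed signal was 8328, 9721, 8392 and 8631 units, highest in sample 2. Within it, the GABA-synthesizing enzyme Gad1 (2129, 1954, 2387 and 1796 units) was highest in sample 3 and the vesicular transporter Slc32a1 (376, 1074, 272 and 1139 units) lowest there. Their part in the Dlx and Lhx6 values was not tested. In whole tissue, fewer cells of a type and less RNA per cell cannot be told apart.

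The other Dlx genes crossed the floor between samples. Dlx6 was above the floor in sample 4 only (33.9 units). Dlx4 was above it in samples 3 and 4, and Dlx3, a gene of skin and placenta, gave 110.5, 47.6 and 38.6 units in samples 1, 2 and 4, with sample 3 below the floor. Of the antisense transcripts of these loci, Dlx1as was above the floor in sample 1 only. One probe set of Dlx6os2 gave 34.4, 83.3, 64.2 and 50.1 units, and the second was above the floor in samples 1 and 3 only. The 2 probe sets of Dlx6os2 had different highest samples, 2 and 3.

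Both oligodendrocyte factors were above the floor in every sample. Nkx2-2, which promotes oligodendrocyte differentiation, gave 120.0, 107, 89.6 and 87.5 units (mean 101 ± 15.4, SD, n = 4), and Nkx6-2, a factor of mature oligodendrocytes, gave 104, 83.0, 148 and 142 units (mean 119 ± 31.1, SD, n = 4). The order of the samples differed between them: Nkx2-2 was highest in sample 1 and Nkx6-2 in sample 3. Summed signals of the 9 measured oligodendrocyte markers were 10036, 13179.8, 9701 and 13174 units, low in samples 1 and 3 and high in samples 2 and 4, which is the order of neither factor. Myelin basic protein (Mbp) gave 3629.8, 4760.1, 3397 and 4883 units. Of the other Nkx genes, most of them known from trunk and visceral organs, Nkx1-2 gave 92.9, 90.5 and 45.9 units in samples 2, 3 and 4, with sample 1 below the floor. Nkx2-9, a gene of the ventral neural tube, was above the floor in samples 1 and 2 only (130.1 and 91.3 units), and Nkx2-3 and Nkx2-5 in 1 sample each. Nkx2-6 and Nkx3-2 were below the floor in every sample.

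Hox genes, which in the nervous system are active in hindbrain and spinal cord, were measured with 40 probe sets for 32 symbols. Of these, 14 (35%) were above the floor in all samples and 13 (32.5%) in none. Among the 73 other member probe sets the numbers were 27 (37.0%) and 14 (19.2%). Of the 31 genes other than Hoxa11os, the brightest probe set was above the floor in all samples for 4 of 8 genes numbered 1 to 4, 8 of 11 numbered 5 to 8 and 1 of 12 numbered 9 to 13, classes drawn after the values were seen. By probe set, the counts of these classes were 4 of 12 (33.3%), 8 of 14 (57.1%) and 1 of 12 (8.33%). The share over all probe sets with 1 gene symbol was 66.1%. Genes with low numbers are active nearest the head. The single gene of the last class was Hoxa9 (46.1, 50.1, 52.5 and 73.9 units). At the stricter floor of 63.5 units, 5 of 40 Hox probe sets were above it in all samples, against 51.4% of all probe sets. They were those of Hoxa4, Hoxb1, Hoxb7, Hoxb8 and Hoxd8.

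**Figure D3:**
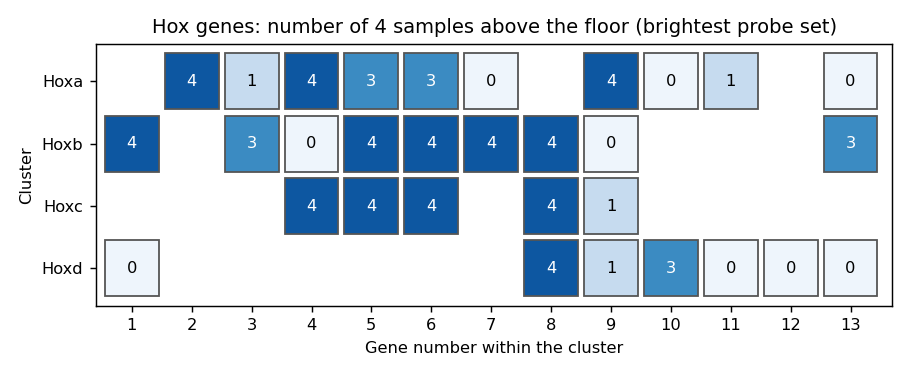
Each box is 1 measured Hox gene, placed by cluster (rows Hoxa to Hoxd) and gene number (columns), and the number in it counts the samples, of 4, in which its brightest probe set was above the floor. Boxes with 4 gather at the numbers 4 to 8, and 6 of the 12 genes numbered 9 to 13 hold a 0.

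Some Hox genes gave different results on different probe sets. Hoxa4 gave 718, 723, 767 and 851 units on 1 probe set (mean 765 ± 61.8, SD, n = 4) and was below the floor in every sample on a second. On another it gave 28.9, 98.9 and 91.8 units in samples 1, 2 and 4, with sample 3 below the floor. On the last it was above the floor in samples 2 and 3 only. Hoxb8 gave 382, 333, 384 and 432 units on 1 probe set (mean 383 ± 40.3, SD, n = 4) and was above the floor in sample 3 only on the other. The bright probe set of both genes bears the letter r, which Affymetrix uses where some of its rules for choosing specific probes had to be dropped. Of the 7 member probe sets with this letter, 3 were above the floor in all samples, against 46.2% of all 901 such probe sets on the array. A like case was Hoxa6, whose r probe set gave 114, 106 and 120.1 units in samples 2, 3 and 4, with sample 1 below the floor, and whose other probe set was below the floor in every sample. Of the 17 member genes with several probe sets, 3 had 1 above the floor in all samples and another above it in none: Hoxa4, Hoxa11os and Six4.

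Among Hox genes on probe sets without a letter, Hoxb6 gave 162, 128, 139.7 and 57.9 units (mean 122 ± 45.1, SD, n = 4), with sample 4 2.80-fold below sample 1. Hoxb7 gave 78.9, 152, 120.0 and 136 units and was lowest in sample 1. Hoxb1, a hindbrain gene, gave 111, 98.8, 65.5 and 99.5 units and was lowest in sample 3. Each of these 3 genes of the Hoxb cluster had a different lowest sample. Hoxb5 gave 56.5, 69.8, 50.8 and 62.8 units, the tightest of this cluster on such probe sets. Hoxa2, active up to the front of the hindbrain, gave 59.1, 101, 102 and 68.7 units, with samples 2 and 3 higher. Hoxd8 gave 120.3, 81.7, 80.3 and 121 units, in samples 1 and 4 higher than in samples 2 and 3, while its second probe set was above the floor in sample 2 only. The 4 Hoxc genes above the floor in all samples followed no common order. Hoxc4 gave 44.8, 82.0, 70.6 and 82.5 units and Hoxc5 63.5, 99.9, 142 and 82.0 units, both lowest in sample 1. Hoxc6 gave 45.4, 36.1, 54.9 and 86.3 units and Hoxc8 65.6, 50.5, 99.3 and 66.3 units, both lowest in sample 2.

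Several Hox genes crossed the floor between samples. Hoxa5 gave 46.3, 51.2 and 58.1 units in samples 1, 2 and 4, with sample 3 below the floor. Hoxb3 gave 40.6, 68.9 and 34.9 units in samples 1, 3 and 4, with sample 2 below the floor. Hoxb13, a gene of the tail end and prostate, gave 105, 44.8 and 59.0 units in samples 1, 2 and 3, with sample 4 below the floor. Hoxd10, a limb and lumbar cord gene, gave 53.5, 104 and 28.8 units in samples 1, 2 and 3, with sample 4 below the floor. The sample below the floor was thus 3, 2, 4 and 4 in turn. Hoxa3, Hoxa11, Hoxc9 and Hoxd9 were above it in 1 sample each, and Hoxa7, Hoxa10, Hoxa13, Hoxb4, Hoxb9, Hoxd1, Hoxd11, Hoxd12 and Hoxd13 in none. Hoxa11os, the antisense RNA of Hoxa11, gave 61.2, 86.7, 71.5 and 109.7 units on a probe set whose letter f marks similarity to a sequence family, and was below the floor in every sample on the other.

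The promoters of these genes were set beside their signals. RefSeq windows of 300 bases around the transcription start (250 before it and 50 after it, build GRCm38.p6) were found for 65 of 91 genes, in 76 windows. The median number of CG dinucleotides, the sites of DNA methylation in mammals, was 17 per member window, against 18 in the 8409 windows of named genes on the array and 7 in all 32851 RefSeq windows. At least 10, a number chosen after the values were seen, were found in 81.6% of member windows, 70.6% of array windows and 43.5% of all windows. The comparison with array genes was added after the other was seen. By the signal of the gene, the median was 17 for genes above the floor in all samples (33 windows), 15 for those above it in 1 to 3 samples (25 windows) and 20.5 for those above it in none (18 windows). The highest of these medians was thus that of the genes without signal above the floor, but the classes overlapped widely. Their quartiles were 11 to 29, 13 to 22 and 12.25 to 25.75 in the same order. At least 10 CG were found in 81.8%, 80% and 83.3% of their windows. The 4 upstream stretches of 150 bases printed here come from windows that show the span. Hoxa9 and Hoxa13 lie in the same cluster, and their windows held 4 and 45 CG, as few as in any member window and the most in any. The windows of Pou6f1 and Pou3f3, forebrain factors, held 26 and 18. The printed stretches alone hold 2, 25, 11 and 9 CG for Hoxa9, Hoxa13, Pou6f1 and Pou3f3. Hoxa9, Pou6f1 and Pou3f3 were above the floor in every sample, whereas Hoxa13 was below it in every sample (11.3, 14.2, 10.3 and 13.8 units). The bases run 5′ to 3′ and end just before the start of the transcript, and CG is in capitals. They lie at chr6:52227371-52227520 (minus strand) for Hoxa9, chr6:52260881-52261030 (minus strand) for Hoxa13, chr15:100599985-100600134 (minus strand) for Pou6f1 and chr1:42695618-42695767 (plus strand) for Pou3f3.
Hoxa9: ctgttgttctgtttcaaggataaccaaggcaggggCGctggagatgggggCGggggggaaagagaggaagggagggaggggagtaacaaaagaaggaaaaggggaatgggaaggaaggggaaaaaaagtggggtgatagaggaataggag
Hoxa13: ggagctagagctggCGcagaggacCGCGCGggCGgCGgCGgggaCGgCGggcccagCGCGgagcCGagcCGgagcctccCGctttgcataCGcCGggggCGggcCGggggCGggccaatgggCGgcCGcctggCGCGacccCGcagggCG
Pou6f1: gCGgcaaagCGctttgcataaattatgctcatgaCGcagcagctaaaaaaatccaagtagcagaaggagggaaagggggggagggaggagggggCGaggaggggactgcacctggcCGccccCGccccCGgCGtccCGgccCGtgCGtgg
Pou3f3: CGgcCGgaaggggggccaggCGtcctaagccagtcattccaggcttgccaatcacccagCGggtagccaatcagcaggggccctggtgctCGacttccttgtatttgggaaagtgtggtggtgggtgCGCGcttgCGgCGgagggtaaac

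**Figure D4:**
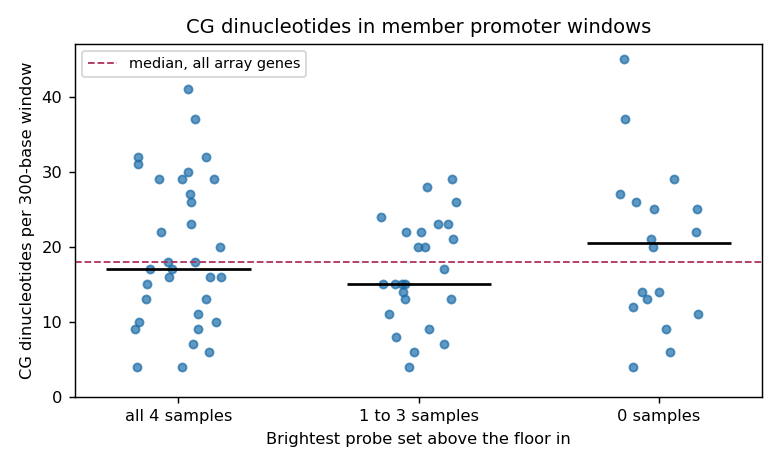
Each point is 1 promoter window of a member gene, with the number of CG dinucleotides in 300 bases on the vertical axis and points spread sideways for clarity within 3 classes by the number of samples in which the brightest probe set was above the floor. Black lines are class medians (17, 15 and 20.5) and the dashed line is the median of 18 for genes on the array.

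Short motifs, of these families and the TATA box, were searched for on both strands of the same windows. The homeodomain core TAATTA was found in 3 of 76 member windows (3.95%), against 2.98% of array windows and 5.29% of all windows. The POU octamer ATGCAAAT was in 0 member windows, against 1.45% and 1.74%. The Gata-type site AGATAA was in 5 (6.58%), against 7.27% and 11.2%, and the TATA box core TATAAA in 7 (9.21%), against 9.98% and 13.6%. TAATTA reads the same on both strands, and no motif contains another. The 3 windows with TAATTA belonged to different starts of Hoxd11 and to Msx2. Both genes were below the floor in every sample, but so few genes cannot relate the motif to signal.

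Gata genes are known from blood, vessels and visceral organs. Gata2, a factor of blood progenitors and endothelium, gave 258, 239, 169 and 286 units (mean 238 ± 49.9, SD, n = 4), and its second probe set was above the floor in samples 1 and 2 only. Gata1, the factor of red cell precursors, gave 67.7, 49.9 and 48.9 units in samples 1, 2 and 4, with sample 3 below the floor, but 98.2, 83.1, 93.5 and 101 units on a probe set with the letter f. Gata3, of T cells and some neurons, gave 47.1, 35.6 and 61.6 units in samples 1, 2 and 4, with sample 3 below the floor. Sample 3 was the lowest for Gata3 and for the first probe set of Gata1 and of Gata2. The summed signal of 7 blood and immune markers was also lowest in sample 3, at 14348, 11233, 4674 and 8776 units. Most of this sum came from the globin genes Hba-a1 (10256, 9251, 3630 and 6998 units) and Hbb-b2 (3658, 1557, 859 and 1477 units). The red cell gene Alas2 gave 209.7, 237, 36.6 and 152 units. The B cell gene Cd79a was low in samples 3 and 4 (151, 139, 83.5 and 80.9 units). The leukocyte marker Ptprc was below the floor in every sample. The part of blood in the Gata values was not tested. Gata4, of heart and gut, gave 129, 193, 112 and 106 units and was highest in sample 2, Gata6 was above the floor in at most 2 samples on each of 3 probe sets, and Gata5 was below it throughout.

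Octamer factors of lymphoid and other cells behaved unevenly. Pou2f3, a factor of epidermis and chemosensory tuft cells, gave 117, 229.8, 111 and 186 units (mean 161 ± 57.2, SD, n = 4), high in samples 2 and 4 and low in samples 1 and 3. Pou2f2, of B cells, was above the floor in samples 1 and 4 only, and each of the 2 probe sets of the B cell coactivator Pou2af1 in 1 sample. Pou5f1, the pluripotency factor Oct4, was above it in sample 4 only on 1 probe set and in samples 3 and 4 on the other.

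Genes of midbrain, hindbrain and pituitary identity were mixed. En2, a midbrain and cerebellar gene, was close to constant at 64.0, 68.8, 59.2 and 65.4 units (mean 64.4 ± 3.97, SD, n = 4), whereas En1 was above the floor in sample 2 only. Pitx3, a factor of midbrain dopamine neurons, gave 59.4, 39.5, 90.7 and 60.2 units. Pitx1, a pituitary and hindlimb gene, gave 144, 53.1, 125 and 83.8 units. Both were lowest in sample 2, with ranges of 2.30-fold and 2.70-fold. Pax2, of the midbrain-hindbrain boundary and kidney, gave 84.7, 78.8, 82.8 and 43.0 units, with sample 4 below 3 samples that lay close together. It was the 1 member of 41 in which a sample stood apart by Dixon's criterion, against 5.75% of all probe sets above the floor in all samples. Pax5, of B cells and midbrain, gave 95.1, 157 and 54.4 units in samples 2, 3 and 4, with sample 1 below the floor, at least a 5.67-fold range, and was below the floor in every sample on its second probe set. Pax8 was above it in samples 1 and 4 and Pax3 in samples 3 and 4. The eye and hypothalamus genes Six3 and Six6 and the isthmus gene Gbx2 were below the floor in every sample.

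The rest were mostly factors known from organs outside the brain, with the neural gene Msx3 an exception. Msx1, of neural crest and limb, gave 231, 254, 307 and 202 units (mean 248 ± 44.6, SD, n = 4). Msx3, of the dorsal neural tube, gave 69.3, 156, 181 and 147 units (mean 138 ± 48.1, SD, n = 4), and sample 1 was 2.61-fold below sample 3. Msx2 was below the floor in every sample. Pax4, a factor of pancreatic beta cells, gave 179, 159, 139 and 55.1 units (mean 133 ± 54.6, SD, n = 4). Sample 4 was the low sample for Pax4, 3.25-fold below sample 1, and the other 3 samples were all above it. Pax1, of the vertebral column, gave 55.8, 110.3, 76.9 and 119 units and was lowest in sample 1, and Pax9 was below the floor throughout. Six2, of kidney progenitors, gave 71.0, 81.5, 53.8 and 87.4 units. Six4, of muscle, gave 51.6, 89.8, 51.3 and 90.6 units on 1 of its 3 probe sets, was above the floor in samples 1 and 4 on another and in none on the last. Irx3 gave 71.4, 79.2 and 37.5 units in samples 2, 3 and 4, with sample 1 below the floor, and Six5 was above the floor in sample 4 only.

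The spread between samples was tested for the 16 member probe sets whose mean was above the array median, of 6211 such probe sets. Each variance was held against the trend of variance with signal. With limma's F test and Benjamini-Hochberg adjustment over all 6211, 0 of 16 passed (smallest adjusted p = 0.894, for Pax4), against 0% of all. At an unadjusted p under 0.05 the number was also 0 of 16, against 5.86% of all, and Pax4 came nearest with 0.0694. With 4 samples, this does not show that the samples were alike in these genes. The range reached 2-fold in 4 of 16 members (25%), against 14.4% of all analysed probe sets. These were Pax4, Hoxb6, Msx3 and Pou2f3. Without sample 4 the count fell to 2, Msx3 and Pou2f3, against 6.65% of all. The median range was 0.68 log2 units for the 16 members and 0.53 for all, and the median SD was 1.00 times the trend for members and 0.94 times for all.

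**Figure D5:**
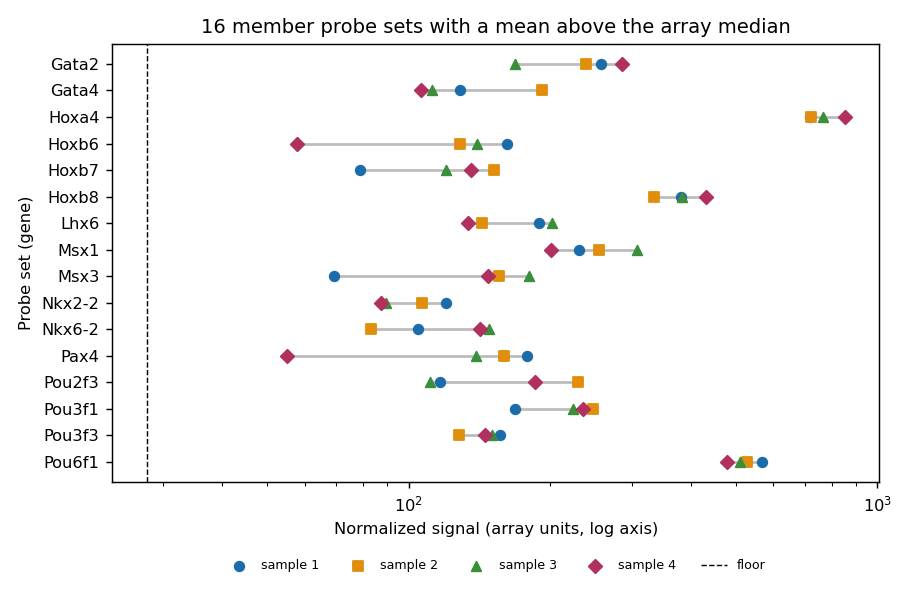
Each row is 1 of the 16 member probe sets with a mean above the array median, with the normalized signal on a log axis, a symbol for each sample, a grey line over the range and a dashed line at the floor of 27.7 units. Sample 4 lies far to the left for Pax4 and Hoxb6 and sample 1 for Msx3, while Pou6f1, Hoxa4 and Pou3f3 span little.

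No sample was far from the others in the median of the members. This log2 difference of the 16 members from the mean of the other samples was -0.02, 0.10, 0.05 and 0.09 in samples 1 to 4, against 0.01, 0.01, 0.01 and 0.02 for all analysed probe sets. Sample 4 was the lowest for 7 of 16 members (43.8%), against 30.6% of all, and the highest for 3 (18.8%), against 31.2%. The beta-actin ratio was highest in sample 4. The summed signal of the 9 principal cell markers was lowest there (4386, 4306, 3918 and 3368 units). Among them, Camk2a, Wfs1 and Nptx1 (1074, 1005, 934 and 557 units) were lowest in sample 4. In contrast, Neurod1 (126, 114, 129 and 152 units) and Neurod2 (736, 638, 622 and 909 units) were highest there. The median log2 difference of the analysed principal cell markers from the other samples was -0.07 in sample 4. The part of RNA quality or of cell makeup in these values was not tested. Among the 97 members that missed the signal filter, 32 (33.0%) spanned at least 2-fold after the floor, against 30.8% of all such probe sets, a share near the background.

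Partners of these factors were counted by gene, on the probe set with the highest mean. The share of 66.1% for probe sets with 1 gene symbol counts every probe set, so it is only a rough guide here. Counted by gene, 40 of 91 members were above the floor in all samples. Of 8 measured LIM-domain cofactors, which bridge or block Lhx proteins, 8 were above it in all samples, among them Lmo4 (1245, 1129, 1263 and 1505 units in samples 1 to 4) and Ldb1 (266, 276, 370.0 and 267 units). The widest ranges were those of Lmo2 (186, 105, 278 and 149 units) and Ssbp4 (1280.1, 656, 982 and 513 units). Of 8 TALE genes, whose homeodomain proteins bind DNA together with Hox proteins, 6 were above the floor in all samples, near the 66.1% by probe set. Meis1 was below it in all. The widest ranges were those of Pknox1 (190.0, 167, 69.3 and 135 units) and Meis2 (48.2, 44.1, 45.9 and 105 units, highest in sample 4). Partners of Pax, Gata and sine oculis homeobox proteins passed in 8 of 11 cases, also near it, with the Gata cofactor Zfpm1 at 582, 551, 577 and 638 units and its relative Zfpm2 at 108, 64.3, 40.9 and 28.5 units. Eya4 and Dach1 were below the floor in every sample, and Eya3 crossed it. Polycomb and Trithorax genes, which hold Hox genes off or on, passed in 13 of 14 cases, with Bmi1 at 378, 384, 435 and 475 units, Rnf2 at 239, 161, 176 and 463 units and Ezh2 at 69.1, 43.5, 29.8 and 57.6 units, and with Cbx7 below the floor throughout. Of the 4, 8, 5 and 9 analysed genes of the TALE, LIM cofactor, partner and Polycomb lists, 0 passed the variance test after adjustment over all probe sets (limma).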

How the data were processed

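The values analysed were 1 microarray per sample, for 4 hippocampus samples in 1 group. The authors deposited linear intensities for 12488 probe sets, of which 66 controls were left out. How the authors made them is not given in the sources used here. Trimmed means of the deposited columns were equal, at 250.1 units. Without detection calls, which were not used, low signal and background look alike. Precision is limited by the number of arrays. No batch is given in the labels.

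Arrays were quantile normalized (limma 3.58.1, R 4.3.3). Values below the 25th percentile were set to it and taken to log2. The 6211 probe sets whose mean exceeded the median entered a variance test over the samples against a robust intensity trend (limma, upper tail of F, residual df 3, prior df 5.20), adjusted by Benjamini-Hochberg over all 6211. It was also run on simulated data with known changes, and how many it recovered is not given here. In the real data even Camk2a, with a range of 21.4-fold, had an adjusted p of 0.316 in this limma test. Symbols came from the platform annotation, and 113 of 113 members matched the RefSeq gene table through the Entrez identifier, with 0 changed symbols. Another 3 probe sets that name a pair of Hox genes each were not members. A gene with several probe sets is given by the one with the highest mean unless stated. Every member above the floor in at least 3 samples is given with values, and the others by family. The members and lists were chosen with earlier results of these data known. Alternatives covered normalization, floor, signal filter, variance trend and leaving out each sample, and 2 restrictions of the members were added after seeing the data. Promoter windows are from RefSeq (GRCm38.p6).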

Additional observations from a re-analysis of the deposited data

Results flagged for a closer look

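Pax2 was the only member, of 41 probe sets above the floor in all 4 samples, in which 1 sample stood far from the other samples. The gap below the other samples took up 0.894 of the whole log2 range, above Dixon's 95% critical value of 0.829 for 4 samples. The signal was 43.0 units in sample 4 against 84.7, 78.8 and 82.8 units in samples 1 to 3. Among all probe sets above the floor in all samples, 5.75% were apart in this way, against 2.44% of members. The beta-actin ratio of 3' to 5' signal was also highest in sample 4, at 2.03, and the part of RNA quality in this value was not tested.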

How the results depend on the processing

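The variance test called 0 member probe sets under each alternative tried, and 0 to 0 when 1 sample was left out. In the main setting the test also called 0 of all 6211 analysed probe sets. A count of 0 members therefore says nothing particular to them and does not show stability. At an unadjusted p under 0.05 it gave 0 or 1 member, except 23 of 113 with no signal filter, against 9.85% of all probe sets. The cause was not tested. The count of analysed members spanning at least 2-fold, 4 in the report, was 36 of 113 (31.9%) with no signal filter, against 22.6% of all probe sets. With the filter at the 75th percentile it was 0 of 3, against 6.60% of all. Other numbers of members entered under these filters. This count was 2 to 3 when 1 sample was left out, 2 without sample 4, against 6.65% to 11.0% of all analysed probe sets. The count above the floor in all samples was 41 of 113 in the report. With the floor at the 15th percentile it was 71, against 74.7% of all, and at the 40th it was 19, against 51.4%. When 1 sample was left out it was 43 to 46, against 65.8% to 66.1% of all. With transcription factors alone it was 39 of 106 and for probe sets without a letter 35 of 95, restrictions chosen after seeing the data. Both shares were 36.8%, against 64.1% of all. The range of single members moved beyond 1 SD for 24 of 55 at the higher floor, 3 at the lower, 2 with deposited and 1 with median-scaled signals, and 7, 9, 15 and 9 without samples 1 to 4. The highest sample differed between scalings for 8 of 41 members and the lowest for 4. No paired analysis was possible because the design has 1 group.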

Other observations

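Pou5f1, looked at after its values were seen, gave 102 units in sample 4 on a probe set with the letter r and was below the floor in samples 1 to 3. On its second probe set the signal was 37.9 units in sample 3 and 61.4 units in sample 4, and samples 1 and 2 were below the floor. Zic1, a gene of dorsal midline and thalamic cells, gave 107, 185, 182 and 353 units in samples 1 to 4, and the Purkinje cell gene Pcp2, on a probe set with the letter r, gave 140.1, 153, 401 and 135 units. Pituitary hormone genes were mixed. Cga was below the floor in sample 3 and Tshb in sample 4. The genes above it in all samples included growth hormone (Gh) at 208, 206, 184 and 222 units and prolactin (Prl) at 116, 78.0, 99.5 and 144 units.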
